A study of Mus musculus with 6 samples.

Results

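The late passage step compares mouse embryonic fibroblasts (MEFs) at population doubling (PD) 14 with the same kind of culture at PD8. MEFs are connective tissue cells grown out of whole embryos. All groups came from the C57BL/6 strain, from pregnancies of 13.5 days, and were grown in DMEM with 10% fetal bovine serum and passaged in series near confluence. The labels name no engineered allele and no drug in any group. A PD is the log2 of cells counted over cells seeded, added up over passages with the primary culture at 0. The genes described are those with at least 1 TPM (transcripts per 1000000) in 2 or more of the 4 PD8 and PD14 libraries, which held for 13120 of the 21988 genes in the deposited table. Of these, 11986 reached that level in 4 libraries, 362 in 3 and 772 in 2. Cyp4f14, Pygm and Mc4r were the members nearest the limit, with a second-highest value of 1.001, 1.003 and 1.004 TPM, and Bcan, Spag6 and Gm5814, at 0.998, 0.997 and 0.995 TPM, were just outside it.

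Fibroblasts kept in culture stop dividing after a limited number of doublings and enter senescence, a lasting arrest held by the cyclin-dependent kinase inhibitors p16 and p21. Senescent cells secrete chemokines, proteases, growth factor binding proteins and complement factors, together called the senescence-associated secretory phenotype (SASP). Many of them also express interferon-stimulated genes, the antiviral genes that type I interferon switches on through STAT and IRF factors at interferon-stimulated response elements (ISRE).

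Each group had 2 libraries, so 4 libraries carry the late step and 2 more, from PD2, share in the estimate of spread. Replicate 1 came from RNA depleted of ribosomal RNA (rRNA) and kept strand, and replicate 2 came from poly(A) selection. Replicate and library method therefore cannot be told apart, and the labels do not say that the 2 libraries of a group came from separate cultures, so p-values measure only the spread between these samples. Correlations across genes on the log2 scale, given as a description, were 0.978 (rRNA-depleted) and 0.981 (poly(A)) between PD8 and PD14 within a method. Between methods they were 0.905 at PD8 and 0.866 at PD14. The rRNA-depleted columns summed to 93.7% to 95.1% of 1000000 TPM and the poly(A) columns to 100%. Macrophage markers were far higher in the poly(A) libraries. The immediate early genes Fos, Fosb and Nr4a1 were far higher in the rRNA-depleted PD2 and PD8 libraries than in the other 4. Egr1 was highest in those libraries as well, at 197 and 252 TPM, beside 108 TPM in the poly(A) PD14 library. The values of these markers and genes stand beside the results they touch. TPM give no read numbers, so the depth behind each value is unknown.

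At PD14 the antiviral genes that interferon induces, complement and acute-phase genes and MHC class I genes were higher than at PD8 in both library methods in nearly all cases, in 38 of 40, 19 of 20 and 17 of 20 members of their lists, where 27.5% of all members were higher in both. Genes of mitosis and of sterol and fatty acid synthesis were lower in both methods in 39 of 44 and 27 of 30 members, where 25.3% of all members were lower in both. The median changes of immediate early genes, histones and mitochondrial transcripts had opposite signs in the 2 methods. These lists were chosen with earlier results of these data known, so their counts are descriptions.

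No single gene passed the test of PD14 against PD8. With limma and library method as a block, 0 genes were higher and 0 lower at an adjusted p under 0.05, which is 0% of the 13120 tested in each direction. At an unadjusted p under 0.05 there were 745, of which 384 were higher and 361 lower at PD14. The smallest adjusted p in limma was 0.858. The median standard error (SE) of a fitted log2 change was 0.198, from 2 libraries a group and 2 residual degrees of freedom. For the early step, PD8 against PD2, the same limma fit put 3 genes past the threshold and 2633 at an unadjusted p under 0.05. The difference of the late from the early step had 0 genes past the threshold, 0% of those tested, with 543 at an unadjusted p under 0.05 and a smallest adjusted p of 0.9996 in limma. A p that misses the threshold does not show that levels were equal, so genes are given below by their values.

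As a description without a test, a gene was counted as 2-fold higher or lower when log2(TPM + 1) differed by at least 1 in the same direction in both library methods. There were 44 such genes higher at PD14, 0.335% of the members, and 9 lower, 0.0686%. By any amount, 3604 genes were higher in both methods, 27.5%, and 3317 were lower in both, 25.3%. One method alone gave many more, with 249 genes 2-fold higher and 128 lower in the rRNA-depleted pair and 269 higher and 151 lower in the poly(A) pair. In 10 genes the rRNA-depleted pair was 2-fold higher and the poly(A) pair 2-fold lower, and in 11 the reverse held. Across genes, which are not independent replicates and share the library pairs, the changes in the 2 methods correlated at r = 0.157 (Spearman 0.141). The plot of both changes per gene shows interferon and complement genes in the upper right and mitotic and sterol genes in the lower left.

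**Figure D1:**
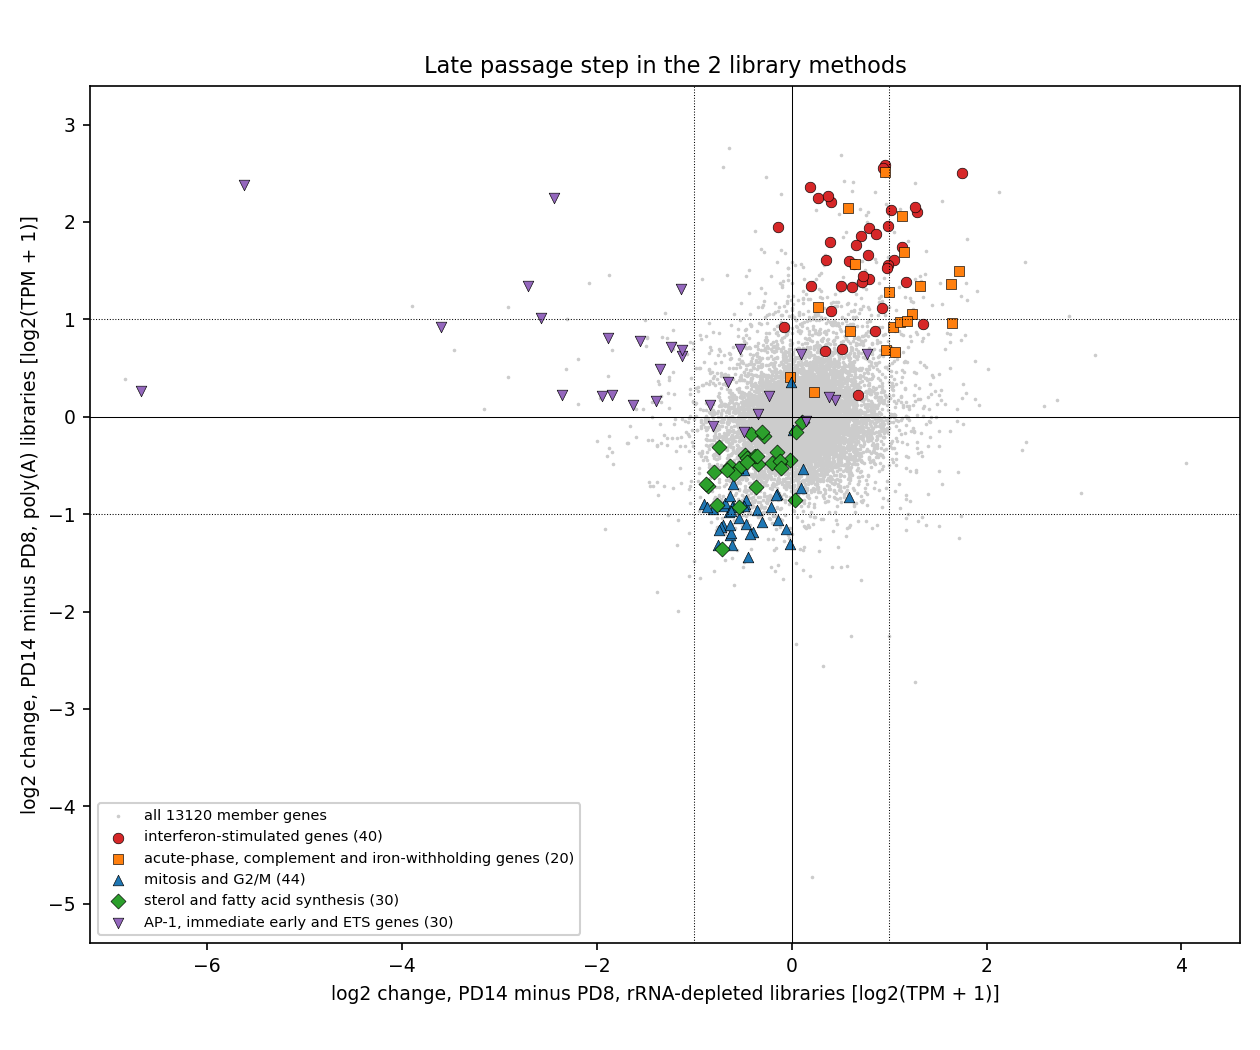
Change from PD8 to PD14 on the log2(TPM + 1) scale in the rRNA-depleted libraries (horizontal) and in the poly(A) libraries (vertical), 1 point per gene for 13120 genes, with 5 gene lists in colour. Interferon-stimulated genes lie above 0 on both axes in 38 of 40 cases, mitotic genes below 0 on both axes in 39 of 44, and immediate early genes extend far to the left, down to a log2 change of -6.68 for Fosb.

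Genes that led the higher direction, ranked by the smaller of their 2 changes among genes with a mean of at least 5 TPM, were Iigp1, Ccl5, Lbp, Clu, Mndal, Oas1b, Steap4, Gpx1, Ddx60, Ifit1 and Il13ra2. Iigp1, an interferon-inducible GTPase that acts on the vacuoles of intracellular parasites, had 8.42 TPM at PD8 and 30.8 TPM at PD14 after rRNA depletion, and 15.5 and 92.3 TPM after poly(A) selection. Ccl5, a chemokine for T cells and monocytes, had 0.188 and 2.46 TPM (rRNA-depleted) and 6.01 and 31.5 TPM (poly(A)). In both genes each PD14 library was above the PD8 library of its own method, and the poly(A) level was above the rRNA-depleted one at both stages. Pairs of TPM are given here and below as PD8 and then PD14. Fitted log2 changes were 2.13 ± 0.56 for Iigp1 and 1.88 ± 0.81 for Ccl5 (SE, n = 2 libraries a group).

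Lbp, which hands bacterial lipopolysaccharide to CD14, had 31.7 TPM at PD8 and 106 TPM at PD14 after rRNA depletion, and 7.83 and 24 TPM after poly(A) selection. Clu, a secreted chaperone that also restrains complement, had 207 and 540.5 TPM (rRNA-depleted) and 29.7 and 98.8 TPM (poly(A)). Steap4, a metalloreductase of iron and copper, had 42.4 and 134 TPM (rRNA-depleted) and 41.7 and 109 TPM (poly(A)). For these 3 genes the PD14 level was a similar multiple of PD8 in both methods, although Lbp and Clu were several times lower throughout in poly(A) libraries. The fitted log2 changes were 1.61 ± 0.28 (unadjusted p = 0.00193) for Lbp, 1.54 ± 0.45 for Clu and 1.5 ± 0.32 for Steap4. Limma's adjusted p was 0.858 for Lbp and between 0.858 and 0.889 for the 23 leading genes described in both directions.

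Gpx1, a selenium-dependent glutathione peroxidase, had 96.1 and 243 TPM (rRNA-depleted) and 154 and 405 TPM (poly(A)), a fitted change of 1.36 ± 0.19. Il13ra2, a decoy receptor that binds interleukin 13, had 3.09 and 14.3 TPM (rRNA-depleted) and 1.92 and 6.14 TPM (poly(A)). Mndal, a member of the interferon-inducible p200 family, had 4.05 and 16.5 TPM (rRNA-depleted) and 7.97 and 22.2 TPM (poly(A)), but it overlaps Ifi203 by 37 exonic bases on the same strand and belongs to a family of close copies, so its share of reads is uncertain. Oas1b, of the oligoadenylate synthetase family, and Ddx60, an antiviral helicase, had PD14 levels of 5.59 and 18.3 TPM for Oas1b and 5.57 and 9.88 TPM for Ddx60 in the rRNA-depleted and the poly(A) library. Their PD8 levels were 1.56 and 5.98 TPM and 1.64 and 2.99 TPM. GENCODE M21 annotates Oas1b as a polymorphic pseudogene. In the plot of 11 higher genes, all have PD14 above PD8 in both methods, and Gpx1 alone among them starts higher at PD2 than at PD8 in both.

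**Figure D2:**
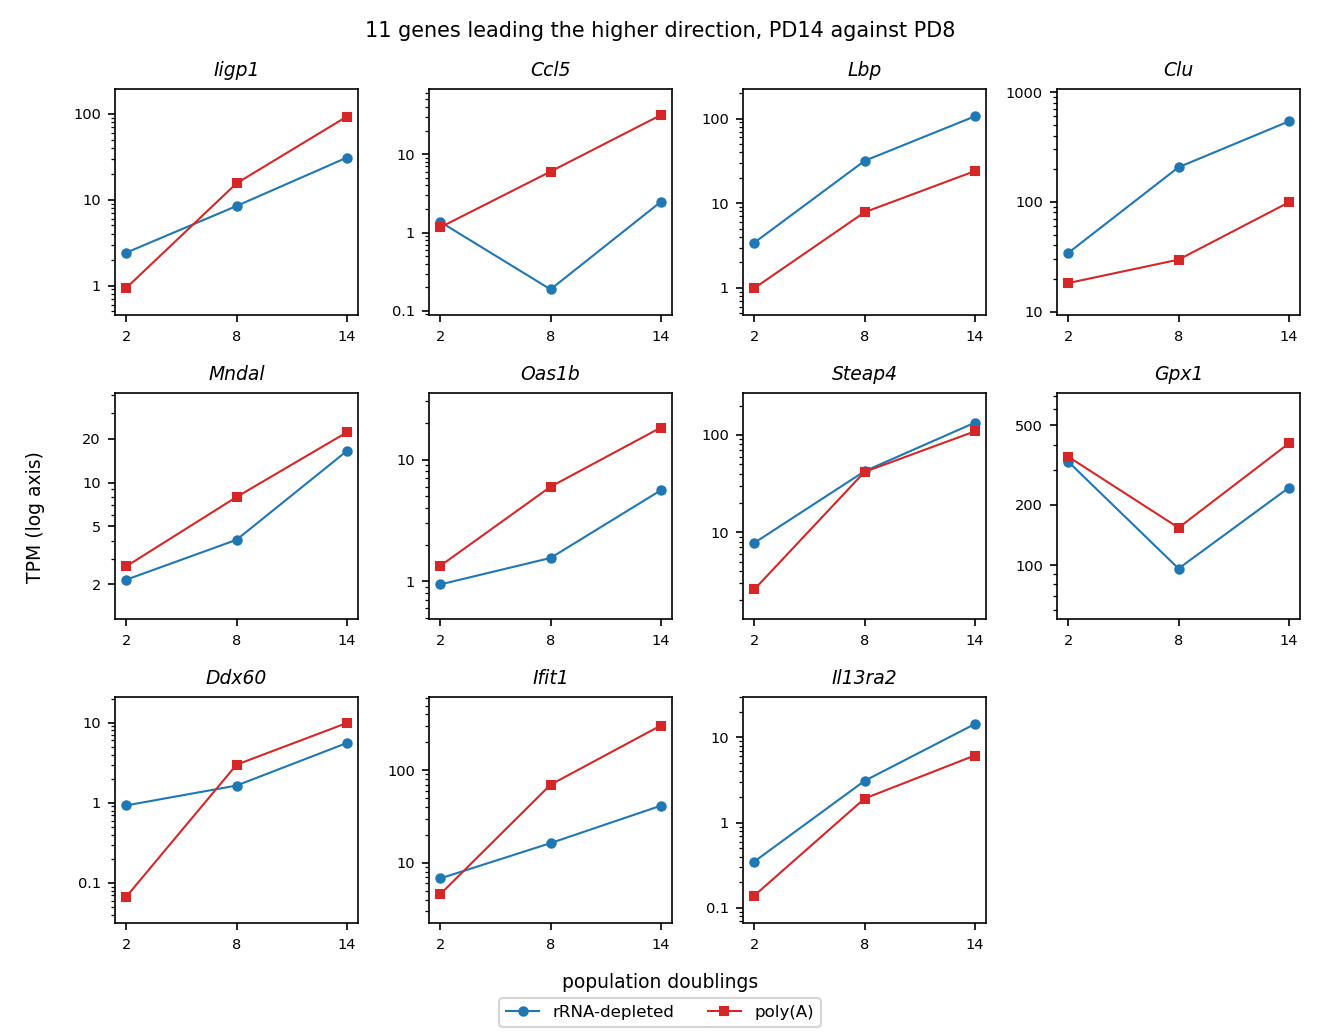
TPM (log axis) of 11 genes leading the higher direction at population doublings 2, 8 and 14, with 1 point per library and 1 line per library method. Every PD14 point lies above the PD8 point of the same method; Gpx1 stands at 328 and 348 TPM at PD2, 96.1 and 154 TPM at PD8 and 243 and 405 TPM at PD14.

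In the fit over both methods, interferon-stimulated genes had the highest median change of the 37 lists with members, but in the rRNA-depleted pair the acute-phase list was higher, at 1.05. Of 41 listed, 40 were members (Oas3 was under the limit), and 38 of these were higher at PD14 in both methods and 0 lower in both, where 27.5% of all members were higher in both. Their median fitted log2 change was 1.22, against 0.01 over all members. The size differed by method, with a median of 0.73 in rRNA-depleted and 1.61 in poly(A) libraries. The fitted median was 0.35 without the PD14 poly(A) library and 1.99 without the PD14 rRNA-depleted one. The acute-phase list led without the PD14 poly(A) library, at 1.13, and without the PD8 rRNA-depleted library, at 1.14 against 1.04. Accordingly 34 of the 40 were 2-fold higher in the poly(A) pair, 8 in the rRNA-depleted pair and 7 in both. Of all 13120 members, 269, 249 and 44 were so in that order. None of the 40 passed limma's threshold. At an unadjusted p under 0.05 in limma 8 were higher, beside 384 of all 13120 members. The 2 exceptions, Ifit2 and Zbp1, were slightly lower in the rRNA-depleted pair only.

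Effectors of the antiviral state carried the largest values. Ifit1, which binds viral RNA caps, had 16.3 TPM at PD8 and 41.3 TPM at PD14 after rRNA depletion, and 69.7 and 304 TPM after poly(A) selection. Ifit3, its partner, had 22.6 and 44.8 TPM (rRNA-depleted) and 96.6 and 584 TPM (poly(A)). The poly(A) levels at PD14 were the highest of the 4 libraries by a wide margin for both genes. The fitted changes were 1.70 ± 0.77 and 1.77 ± 0.91, from changes of 1.29 and 2.11 for Ifit1 and 0.95 and 2.58 for Ifit3 in the 2 methods. Ifit, Gbp, Oas and p200 genes lie in families of close copies, so reads of single members may be shared. Isg15, the ubiquitin-like modifier, had 31 and 51.2 TPM (rRNA-depleted) and 271 and 986 TPM (poly(A)). Gbp3, a guanylate-binding protein, had 7.5 and 19.5 TPM (rRNA-depleted) and 33.1 and 151 TPM (poly(A)). Parp14, a mono-ADP-ribosyltransferase, was more alike between methods with 7.34 and 17.7 TPM (rRNA-depleted) and 11 and 30.4 TPM (poly(A)) and a change of 1.28 ± 0.30. Among the signal transducers, Stat2 had 27.6 and 71.7 TPM (rRNA-depleted) and 91.6 and 178 TPM (poly(A)), and here the rRNA-depleted change, 1.35, was the larger beside 0.95 in the poly(A) pair.

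Macrophage and leukocyte markers, of which 16 of 20 were members, differed between methods more than between PD8 and PD14. Their TPM summed to 34.6 at PD8 and 47.4 at PD14 in the rRNA-depleted libraries and to 777 and 740 in the poly(A) libraries. Lyz2, lysozyme of macrophages, took most of this, at 621 and 569 TPM in the poly(A) libraries. Of the defining markers, Ptprc stood at 1.74 and 1.72 TPM there, and Adgre1 at 26.2 and 34.4 TPM. The part of these cells in the interferon and chemokine values was not tested. In bulk RNA such as this, fewer cells of a type and less RNA per cell cannot be told apart.

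The promoters of the interferon-stimulated genes show the element named in the background. Promoters were taken from RefSeq on GRCm38.p6 (mm10), 250 bases before to 50 after the start, and searched on both strands for the ISRE core, which is GAAA, any 2 bases and GAAA again. It was found in 16 of the 27 list members with an entry (59.3%), against 3.99% of all 27025 genes with an entry and 3.79% of the members with one. The median fitted change was 1.24 for the 16 with the core and 1.10 for the 11 without it. The 3 examples below were picked among list members with the core, as those with the largest value for the smaller of their 2 changes. Capitals mark the core or its reverse complement.

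Ifit1 (chr19:34640639-34640938, plus strand): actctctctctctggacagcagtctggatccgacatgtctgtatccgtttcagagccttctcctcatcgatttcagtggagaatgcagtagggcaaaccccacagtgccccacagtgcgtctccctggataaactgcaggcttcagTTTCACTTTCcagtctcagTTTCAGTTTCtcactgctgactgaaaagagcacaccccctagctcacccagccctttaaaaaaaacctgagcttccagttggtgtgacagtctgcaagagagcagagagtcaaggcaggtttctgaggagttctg

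Gbp3 (chr3:142559794-142560093, plus strand): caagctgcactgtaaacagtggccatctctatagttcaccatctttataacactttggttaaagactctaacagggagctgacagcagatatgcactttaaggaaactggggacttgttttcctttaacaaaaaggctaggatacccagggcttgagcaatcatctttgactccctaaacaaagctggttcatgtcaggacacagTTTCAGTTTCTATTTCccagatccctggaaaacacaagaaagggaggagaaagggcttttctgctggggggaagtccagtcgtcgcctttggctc

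Ifi203 (chr1:173942443-173942742, minus strand): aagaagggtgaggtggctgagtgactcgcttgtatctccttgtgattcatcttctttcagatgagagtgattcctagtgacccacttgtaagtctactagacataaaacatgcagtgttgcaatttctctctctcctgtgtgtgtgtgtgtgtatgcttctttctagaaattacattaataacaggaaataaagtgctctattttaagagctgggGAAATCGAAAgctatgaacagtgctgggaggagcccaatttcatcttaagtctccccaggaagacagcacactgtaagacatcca

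Ifit1 has 2 separate cores, the first at position -104 counted from the start, Gbp3 has 2 that overlap, and Ifi203 has 1. Ifi203 itself had 3.86 and 8.57 TPM (rRNA-depleted) and 10.0 and 30.6 TPM (poly(A)), and it overlaps Mndal. A match is a description of the letters and not a measured binding site.

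Genes of MHC class I antigen presentation, through which cells show peptides to CD8 T cells, were also higher. All 20 listed were members, 17 were higher in both methods and 0 lower in both, with a median fitted log2 change of 0.75 (0.44 rRNA-depleted, 1.10 poly(A)). Without the PD14 poly(A) library the median was 0.38, and without the PD14 rRNA-depleted one 1.16. None passed the test and 11 were higher at an unadjusted p under 0.05 in limma, beside 384 of all 13120 members. B2m, the invariant light chain, had 1257 TPM at PD8 and 1742 TPM at PD14 after rRNA depletion, and 2494 and 5489 TPM after poly(A) selection. H2-K1, a classical heavy chain, had 82.2 and 153 TPM (rRNA-depleted) and 144 and 375 TPM (poly(A)), and H2-D1, the other, had 162 and 270.3 TPM (rRNA-depleted) and 254 and 667 TPM (poly(A)). Each PD14 library exceeded both PD8 libraries for H2-K1 and H2-D1. Their changes were 1.13 ± 0.21 and 1.06 ± 0.27. Psmb8, an immunoproteasome subunit, had 13.1 and 22.4 TPM (rRNA-depleted) and 15.9 and 44.9 TPM (poly(A)). The heavy chain genes H2-Q4 and H2-Q6 showed the largest changes of the list, 1.58 ± 0.42 and 1.58 ± 0.49. They lie in a family of similar genes, so their share of reads is uncertain. Tap2, Psmb8 and Psmb9 are on this list and on the interferon list.

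Acute-phase, complement and iron-withholding genes were higher by about the same amount in both methods. Of 25 listed, 20 were members and 19 of these were higher in both, 0 lower in both. The median fitted log2 change was 1.12, with 1.05 in rRNA-depleted and 1.09 in poly(A) libraries. In each method 11 were 2-fold higher, and 6 were so in both. Of all 13120 members, 249 (rRNA-depleted), 269 (poly(A)) and 44 (both) were 2-fold higher. None of the list passed limma's threshold. At an unadjusted p under 0.05 in limma 13 of the 20 were higher, beside 384 of all 13120 members. The early step gave this list a median of 2.12, on the same PD8 libraries.

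Along the classical complement pathway, C1s1, the protease that cleaves C4, had 224 TPM at PD8 and 511 TPM at PD14 after rRNA depletion, and 119 and 237 TPM after poly(A) selection. C4b had 28.5 and 68.7 TPM (rRNA-depleted) and 2.07 and 5.37 TPM (poly(A)), and C3, where the pathways meet, had 114 and 360.0 TPM (rRNA-depleted) and 54.4 and 107 TPM (poly(A)). Cfb, the protease of the alternative pathway, had 11.4 and 26.3 TPM (rRNA-depleted) and 6.24 and 29.2 TPM (poly(A)), but a same-strand gene model shares 2246 exonic bases with it. The inhibitor Serping1, which blocks C1s and C1r, had 160.4 and 357 TPM (rRNA-depleted) and 42.4 and 139 TPM (poly(A)). All PD14 libraries were above the PD8 library of their method in each of these 5 genes, and for C4b the rRNA-depleted levels were several times the poly(A) levels. The changes ran from 1.09 ± 0.12 for C1s1 (unadjusted p = 0.000263, limma adjusted p = 0.858) to 1.60 ± 0.35 for Cfb.

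Lcn2, lipocalin 2, which binds bacterial iron carriers, had 209 TPM at PD8 and 407 TPM at PD14 after rRNA depletion, and 30.7 and 179 TPM after poly(A) selection, a change of 1.73 ± 0.36. Its level at PD2 was 6.97 and 0.88 TPM. The NF-kappaB core (GGGA, any 2 bases, TTCC) was searched in the same promoter windows on both strands and had a match in 0 of the 12 members with an entry, against 1.63% of all genes with one. That says only that these letters are not in those windows.

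The classical SASP lists had smaller medians. Among cytokines and chemokines 31 of 36 were members, with Il1a, Il1b, Csf2, Csf3 and Cxcl13 under the limit, and 12 were higher in both methods, 3 lower in both and 16 split, which means not in the same direction in both methods. Of all members 27.5% were higher and 25.3% lower in both. The 47.2% of all members that were split was near the share in this list. Ccl5 was the 1 member 2-fold higher in both, and 9 were 2-fold higher in the poly(A) pair, beside 44 and 269 of all 13120 members. The median fitted change was 0.27, and it was -0.30 without the PD14 poly(A) library and 1.13 without the PD14 rRNA-depleted one. Cxcl5, a neutrophil chemokine, had 1037 and 1752 TPM (rRNA-depleted) and 855 and 1481 TPM (poly(A)), alike in both methods, and Il15, which supports natural killer cells, had 2.15 and 4.86 TPM (rRNA-depleted) and 5.07 and 8.35 TPM (poly(A)). By contrast Cxcl1 had 264 and 217 TPM (rRNA-depleted) and 149 and 483 TPM (poly(A)) and Ccl2 had 271 and 195 TPM (rRNA-depleted) and 1074 and 2922 TPM (poly(A)). For these 2 chemokines the poly(A) pair was higher at PD14 and the rRNA-depleted pair lower. Cxcl10, an interferon-induced chemokine that overlaps Art3 on the other strand, had 0.852 and 1.63 TPM (rRNA-depleted) and 21 and 141 TPM (poly(A)), most of it in the poly(A) PD14 library.

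Of the proteases and inhibitors, 24 of 26 were members. In both methods 12 were higher (50%) and 5 lower (20.8%), where 27.5% and 25.3% of all members were. The list's median was 0.17. That median was 0.037 without the PD8 rRNA-depleted library, 0.32 without the PD8 poly(A) one, 0.28 without the PD14 rRNA-depleted one and 0.066 without the PD14 poly(A) one. Mmp3, stromelysin 1, had 118 and 189.8 TPM (rRNA-depleted) and 807 and 2327 TPM (poly(A)). The AP-1 site TGANTCA was in 5 of their 15 promoters with an entry (33.3%), against 8.97% of all genes and 6.43% of the members with one. The median fitted change was 0.22 with the site and 0.25 without it. Growth factors and binding proteins had 15 of 37 members higher (40.5%) and 5 lower (13.5%) in both methods. Their median, also 0.17, was 0.29 without the PD8 and 0.35 without the PD14 rRNA-depleted library. Igfbp3, a carrier of insulin-like growth factors, had 509.5 and 948 TPM (rRNA-depleted) and 445 and 656 TPM (poly(A)), a change of 0.73 ± 0.23, and Angpt1, a ligand of the endothelial receptor Tie2, had 32.3 and 61.4 TPM (rRNA-depleted) and 8.87 and 15.9 TPM (poly(A)). NF-kappaB and C/EBP genes had 8 of 22 members higher in both methods (36.4%, beside 27.5% of all members) and 0 lower in both. Their median of 0.31 was 0.046 without the PD14 poly(A) library. Vcam1, a leukocyte adhesion molecule, had 222 and 444 TPM (rRNA-depleted) and 219 and 317 TPM (poly(A)), while Cebpb, which overlaps Tmem189 on the other strand, had 176 and 142 TPM (rRNA-depleted) and 101 and 335 TPM (poly(A)).

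**Figure D3:**
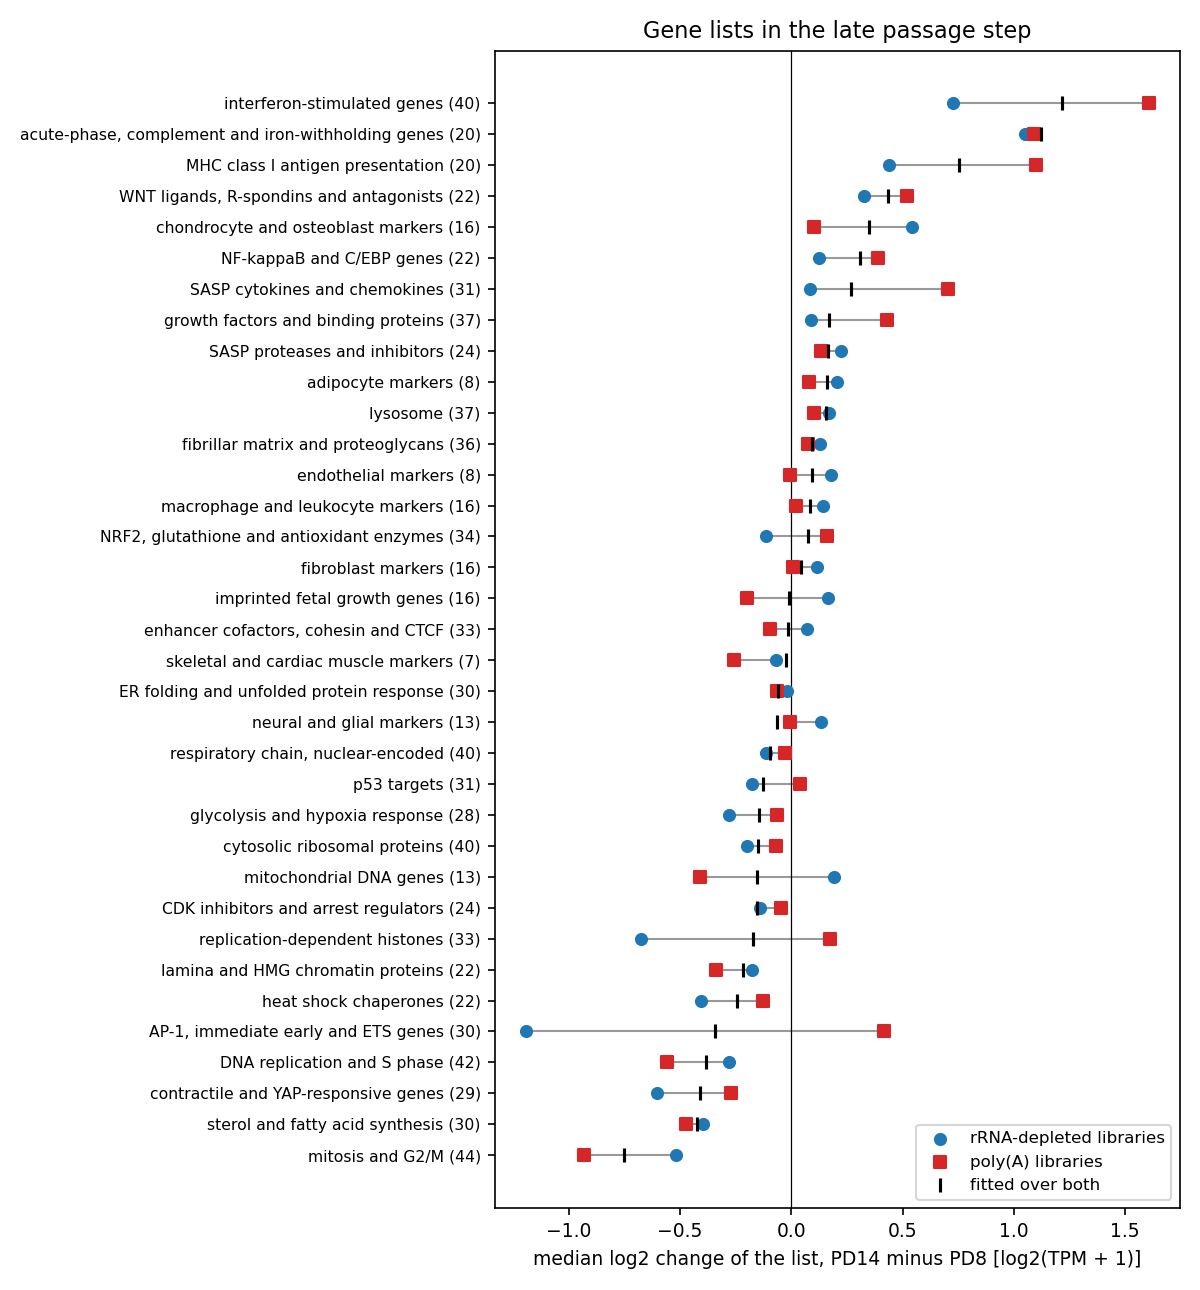
Median log2(TPM + 1) change from PD8 to PD14 for each gene list with at least 5 members, the senescence panel left out, fitted over both methods and in each library method separately, with the count of members. In the fit over both, interferon-stimulated genes (1.22) and acute-phase and complement genes (1.12) stand highest and mitotic genes (-0.75) lowest, and the 2 methods part most for immediate early genes (-1.19 and 0.42).

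In the lower direction, genes of mitosis had the lowest median of the 37 lists in the fit over both methods, but in neither method alone. In the rRNA-depleted pair the immediate early, histone and contractile lists were lower, and in the poly(A) pair the 3 epithelial markers were, at -0.94. All 44 listed were members, 39 were lower at PD14 in both methods and 0 higher in both, where 25.3% of all members were lower in both. The median fitted log2 change was -0.75, with -0.52 in rRNA-depleted and -0.93 in poly(A) libraries. Without the PD14 poly(A) library the mitosis median was -0.45, above the -1.19 of histones and the -1.13 of immediate early genes, and without the PD8 rRNA-depleted library it was -0.76 beside -0.80 for the epithelial markers. The mitosis median was -1.06 without the PD14 rRNA-depleted library. None was 2-fold lower in both, 17 were so in the poly(A) pair, and none passed limma's threshold with 30 lower at an unadjusted p under 0.05. Of all 13120 members, 151 were 2-fold lower in the poly(A) pair and 361 lower at an unadjusted p under 0.05 in limma. The median of the early step was -0.84 on the same PD8 libraries.

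Plk1, the kinase that drives mitotic entry and spindle assembly, had 26.1 TPM at PD8 and 13.5 TPM at PD14 after rRNA depletion, and 16.2 and 8.26 TPM after poly(A) selection. Aurka, the kinase of centrosomes, had 17.8 and 9.72 TPM (rRNA-depleted) and 22.4 and 11.1 TPM (poly(A)), and Ube2c, the ubiquitin-conjugating partner of the anaphase-promoting complex, had 52.5 and 28.2 TPM (rRNA-depleted) and 64.1 and 33.3 TPM (poly(A)). In these 3 genes both PD14 libraries were below both PD8 libraries. Fitted changes were -0.90 ± 0.20 for Plk1, -0.88 ± 0.16 for Aurka and -0.90 ± 0.19 for Ube2c, and Ube2c overlaps Tnnc2 by 592 exonic bases on the other strand. Mki67, a proliferation marker, had 56.5 and 36.4 TPM (rRNA-depleted) and 20.1 and 7.46 TPM (poly(A)). Ccna2, cyclin A2, had the largest change of the list, -1.04 ± 0.30, with 41.4 and 24 TPM (rRNA-depleted) and 23.2 and 8.74 TPM (poly(A)). It overlaps Exosc9 by 510 exonic bases on the other strand. Cdc20 and Birc5, which act at the checkpoint and in the chromosomal passenger complex, had changes of -0.95 ± 0.29 and -0.93 ± 0.17. The 5 split genes were Prc1, Ncapd2, Spc25, Pttg1 and Foxm1. The highest rRNA-depleted change in the list was 0.59. As a sum the list had 2261 and 2434 TPM (rRNA-depleted) and 940 and 504.5 TPM (poly(A)), so the rRNA-depleted sum was higher at PD14.

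The cell cycle genes homology region (CHR), letters TTTGAA, through which the DREAM and MuvB complexes act on late cell cycle genes, was searched on both strands of the same windows. It was found in 27 of the 36 mitotic genes with an entry (75.0%), against 20.2% of all genes with an entry and 14.4% of the members with one. The median fitted change was -0.79 with it and -0.70 without it. The 3 promoters below were picked among list members with the CHR, so its presence in all of them follows from the choice. Among those members, their genes were the most strongly lower when ranked by the smaller change of both methods. Capitals mark the CHR or its reverse complement.

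Plk1 (chr7:122159185-122159484, plus strand): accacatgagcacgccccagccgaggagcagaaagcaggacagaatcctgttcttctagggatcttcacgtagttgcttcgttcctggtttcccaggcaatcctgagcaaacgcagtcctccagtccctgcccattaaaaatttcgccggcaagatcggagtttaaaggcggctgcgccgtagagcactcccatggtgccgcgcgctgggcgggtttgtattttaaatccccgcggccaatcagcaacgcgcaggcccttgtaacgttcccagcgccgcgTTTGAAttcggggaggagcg

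Ube2c (chr2:164769679-164769978, plus strand): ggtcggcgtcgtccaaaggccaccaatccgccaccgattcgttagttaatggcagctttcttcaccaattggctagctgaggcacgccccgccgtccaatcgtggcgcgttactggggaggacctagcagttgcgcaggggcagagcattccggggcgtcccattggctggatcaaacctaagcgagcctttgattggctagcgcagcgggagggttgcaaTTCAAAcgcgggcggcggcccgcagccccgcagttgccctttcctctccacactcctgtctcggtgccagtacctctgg

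Aurka (chr2:172370521-172370820, minus strand): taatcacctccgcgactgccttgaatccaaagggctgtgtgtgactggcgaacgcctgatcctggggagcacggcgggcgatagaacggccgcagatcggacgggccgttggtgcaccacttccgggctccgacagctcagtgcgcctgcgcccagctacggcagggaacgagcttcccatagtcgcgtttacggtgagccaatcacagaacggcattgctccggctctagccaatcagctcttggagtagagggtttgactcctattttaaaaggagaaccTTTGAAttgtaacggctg

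Plk1 and Aurka carry the letters 30 and 32 bases after the start, and Ube2c carries the reverse complement at position -29. As above, these are matches of letters and no binding was measured.

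DNA replication and S phase genes were lower by less. All 42 were members, 32 were lower in both methods and 0 higher in both, where 25.3% of all members were lower in both. The median was -0.38 (-0.28 rRNA-depleted, -0.56 poly(A)). At an unadjusted p under 0.05 in limma 15 were lower, beside 361 of all 13120 members. Uhrf1, which carries DNA methylation through replication, had 23.4 and 15.5 TPM (rRNA-depleted) and 19.6 and 6.97 TPM (poly(A)). Chaf1b, a histone chaperone of the fork, had 13.4 and 7.61 TPM (rRNA-depleted) and 11.4 and 6.8 TPM (poly(A)), and Mcm5, a subunit of the replicative helicase, had 16 and 11.3 TPM (rRNA-depleted) and 17.6 and 9.87 TPM (poly(A)). Cdc6, which loads that helicase, had 3.42 and 1.84 TPM (rRNA-depleted) and 3.85 and 1.8 TPM (poly(A)). All 4 were lower at PD14 in both methods.

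The 12 genes leading the lower direction were Sgsh, Rnasek, Acta1, Glmp, Arl5b, Sfn, Plk1, Ap1ar, Ube2c, Ska3, Aurka and Murc. Glmp, a lysosomal membrane glycoprotein (chromosome 3, 88325023 to 88331313 on mm10, GENCODE M21), had 73.1 TPM at PD8 and 32 TPM at PD14 after rRNA depletion, and 164 and 78.2 TPM after poly(A) selection. Its change of -1.11 ± 0.12 had the smallest unadjusted p of all members, 0.000173 (limma, adjusted p 0.858). Sgsh, the lysosomal sulfatase of heparan sulfate (chromosome 11, 119343425 to 119355536), had 27.9 and 11.9 TPM (rRNA-depleted) and 32.3 and 7.36 TPM (poly(A)). Both genes overlap a coding gene on the other strand, Glmp with Tmem79 by 1278 exonic bases and Sgsh with Card14 by 955, and the poly(A) libraries are not stated to keep strand. The lysosome list as a whole had 20 of 37 members higher (54.1%) and 6 lower (16.2%) in both methods, where 27.5% and 25.3% of all members were. The list's median was 0.15. That median was -0.065 without the PD8 rRNA-depleted library, -0.017 without the PD14 poly(A) one and 0.30 without the PD8 poly(A) one.

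Rnasek, a small membrane protein that associates with the vacuolar proton pump (chromosome 11, 70238124 to 70239842), had 75.4 and 19.3 TPM (rRNA-depleted) and 112 and 49.9 TPM (poly(A)), a change of -1.53 ± 0.31. It shares 599 exonic bases with Gm21988 on the same strand. Ap1ar, which regulates adaptor complex 1 on vesicles, had 43 and 22.4 TPM (rRNA-depleted) and 41.4 and 21.8 TPM (poly(A)), close to the same values in both methods. Arl5b, an Arf-like GTPase of the Golgi, had 14.2 and 6.55 TPM (rRNA-depleted) and 14.4 and 4.51 TPM (poly(A)). Sfn, the 14-3-3 sigma protein, had 7.74 and 3.56 TPM (rRNA-depleted) and 19 and 5.34 TPM (poly(A)), Acta1, skeletal muscle actin, had 6.9 and 2.8 TPM (rRNA-depleted) and 24.1 and 9.94 TPM (poly(A)), and Murc, a caveolar coat protein of muscle, had 7.47 and 3.84 TPM (rRNA-depleted) and 6.43 and 3.05 TPM (poly(A)). Ska3, of the complex that holds kinetochores to microtubules, had 7.5 and 3.77 TPM (rRNA-depleted) and 8.06 and 3.3 TPM (poly(A)). All 12 were lower at PD14 in both methods.

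**Figure D4:**
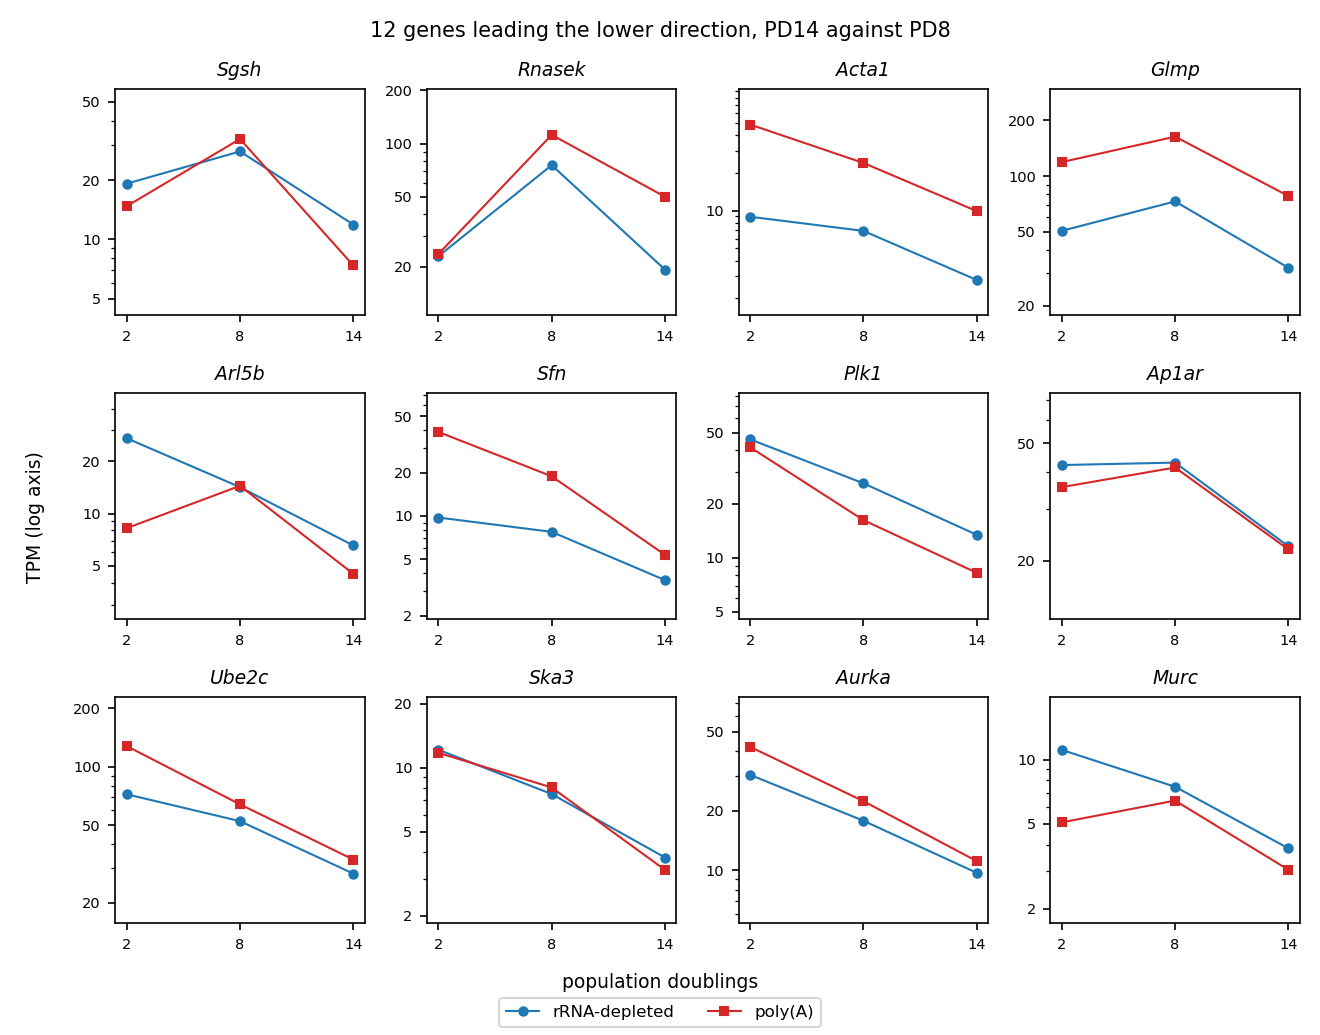
TPM (log axis) of the 12 genes leading the lower direction at population doublings 2, 8 and 14, with 1 point per library and 1 line per method. All PD14 points lie below the PD8 points of their method; Rnasek, Glmp and Sgsh peak at PD8 in both methods, while Plk1, Ube2c and Aurka are lower at PD8 than at PD2 and lower again at PD14.

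Leading genes differed in what they did before PD8. Gpx1 had 328 and 348 TPM at PD2 in the 2 methods, 96.1 and 154 at PD8 and 243 and 405 at PD14. Rnasek had 22.9 and 23.6 TPM at PD2, well below PD8. For Gpx1 the late step minus the early step was 2.83 ± 0.33, and for Rnasek it was -3.47 ± 0.54, both with a limma adjusted p of 0.9996. The early and late steps share the PD8 libraries, so a value that stands apart at PD8 enters both with opposite sign.

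Genes of sterol and fatty acid synthesis were lower in both methods in 27 of 30 cases and higher in both in 0. The median fitted change was -0.42, with -0.39 and -0.47 in the 2 methods, and the early step had a median of -0.89. None passed the test, and 17 were lower at an unadjusted p under 0.05 in limma, beside 361 of all 13120 members. Fdps, which makes farnesyl pyrophosphate and shares 1124 exonic bases with a same-strand gene model, had 184 TPM at PD8 and 101 TPM at PD14 after rRNA depletion, and 324 and 198 TPM after poly(A) selection. Scd1 and Scd2, desaturases that make oleic acid, had 105 and 61.8 TPM (rRNA-depleted) and 128 and 68.3 TPM (poly(A)) and 403 and 277 TPM (rRNA-depleted) and 762 and 401 TPM (poly(A)). In each of these 3 genes both PD14 libraries were below both PD8 libraries, except that the poly(A) PD14 level of Fdps was above its rRNA-depleted PD8 level.

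The sterol regulatory element core TCACNCCAC, bound by SREBP factors, was in 1 of the 20 list promoters with an entry (5.0%), against 1.44% of all genes with one. That promoter, of Hmgcs1, which makes HMG-CoA, is shown with the core in capitals, at position -137 from the start.

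Hmgcs1 (chr13:119690101-119690400, plus strand): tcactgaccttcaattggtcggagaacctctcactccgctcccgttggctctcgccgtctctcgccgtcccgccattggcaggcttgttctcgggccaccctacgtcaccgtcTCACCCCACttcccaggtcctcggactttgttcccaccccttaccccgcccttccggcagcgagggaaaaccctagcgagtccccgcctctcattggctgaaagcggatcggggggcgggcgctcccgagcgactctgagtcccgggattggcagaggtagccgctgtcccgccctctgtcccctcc

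Hmgcs1 itself had 207 and 191 TPM (rRNA-depleted) and 244 and 175 TPM (poly(A)), a change of -0.30 ± 0.18, smaller than that of the genes above. The median fitted change of the other 19 promoters' genes was -0.41.

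Contractile and YAP-responsive genes were lower in both methods in 20 of 29 cases and higher in both in 1. Of all members 25.3% were lower and 27.5% higher in both. The list's median was -0.41 (-0.60 rRNA-depleted, -0.27 poly(A)), or -0.24 without the PD8 rRNA-depleted library. Acta2, smooth muscle actin, had 2028 TPM at PD8 and 798 TPM at PD14 after rRNA depletion, and 3490.4 and 2885 TPM after poly(A) selection. Tagln, transgelin, had 941 and 387 TPM (rRNA-depleted) and 1921 and 1570.2 TPM (poly(A)), and Cnn1, calponin, had 87.9 and 34.8 TPM (rRNA-depleted) and 103 and 62.6 TPM (poly(A)). Myl9, a myosin light chain, had 536 and 146 TPM (rRNA-depleted) and 411 and 328 TPM (poly(A)). The rRNA-depleted differences were the larger in all 4. Fitted changes were -0.81 ± 0.29, -0.79 ± 0.27, -1.01 ± 0.24 and -1.10 ± 0.56 in that order.

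Several other lists had smaller medians below 0 in the fit over both methods. Of all members 25.3% were lower in both methods and 47.2% were split. Ribosomal protein genes were lower in both methods in 33 of 40 cases, with a median of only -0.15, or -0.071 without the PD14 rRNA-depleted library. Heat shock chaperones were lower in both in 12 of 22 and split in 10, with a median of -0.24. It was -0.16 without the PD14 and -0.14 without the PD8 rRNA-depleted library, and -0.40 without the PD14 poly(A) one. Lamina and HMG chromatin proteins were lower in both in 13 of 22, higher in both in 0 and split in 9. Their median was -0.21, or -0.42 without the PD14 rRNA-depleted and -0.12 without the PD14 poly(A) library. Hmga2, an architectural chromatin protein of growing embryonic cells, had 229 and 136 TPM (rRNA-depleted) and 285 and 183 TPM (poly(A)), a change of -0.69 ± 0.11. Hmga1 had 48.6 and 33.2 TPM (rRNA-depleted) and 146 and 91.4 TPM (poly(A)). Lmnb1, lamin B1, whose loss marks senescence, had 22.7 and 18.6 TPM (rRNA-depleted) and 20.7 and 11.3 TPM (poly(A)), and Hmgb2 had 36.9 and 24.5 TPM (rRNA-depleted) and 24 and 14.3 TPM (poly(A)). These 4 genes were lower at PD14 in both methods.

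Immediate early genes, which growth factors and stress induce within minutes, differed in opposite directions in the 2 methods. All 30 AP-1, immediate early and ETS genes were members, and 24 were split between methods, against 47.2% of all members. In the rRNA-depleted pair 18 were 2-fold lower at PD14, and in the poly(A) pair 5 were 2-fold higher, beside 128 and 269 of all 13120 members. The median change of the list was -1.19 in the first pair and 0.42 in the second. Fos had 587 TPM at PD8 and 10.9 TPM at PD14 after rRNA depletion, and 4.5 and 27.6 TPM after poly(A) selection. Fosb had 301 and 1.95 TPM (rRNA-depleted) and 1.1 and 1.52 TPM (poly(A)), Egr1 had 252 and 45.6 TPM (rRNA-depleted) and 22 and 108 TPM (poly(A)) and Nr4a1 had 153 and 9.33 TPM (rRNA-depleted) and 12.2 and 28.1 TPM (poly(A)). In all 4 the rRNA-depleted PD8 library was the highest of the 4 libraries, and the PD2 rRNA-depleted library was high as well, at 396, 133, 197 and 226 TPM in that order. The rRNA-depleted PD14 library was the low one of its method. Junb, which overlaps Prdx2, had 331 and 54.9 TPM (rRNA-depleted) and 90.4 and 184 TPM (poly(A)). The list's fitted median of -0.34 was 0.17 without the PD8 and 0.36 without the PD14 rRNA-depleted library, and -0.90 without the PD8 and -1.13 without the PD14 poly(A) library.

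**Figure D5:**
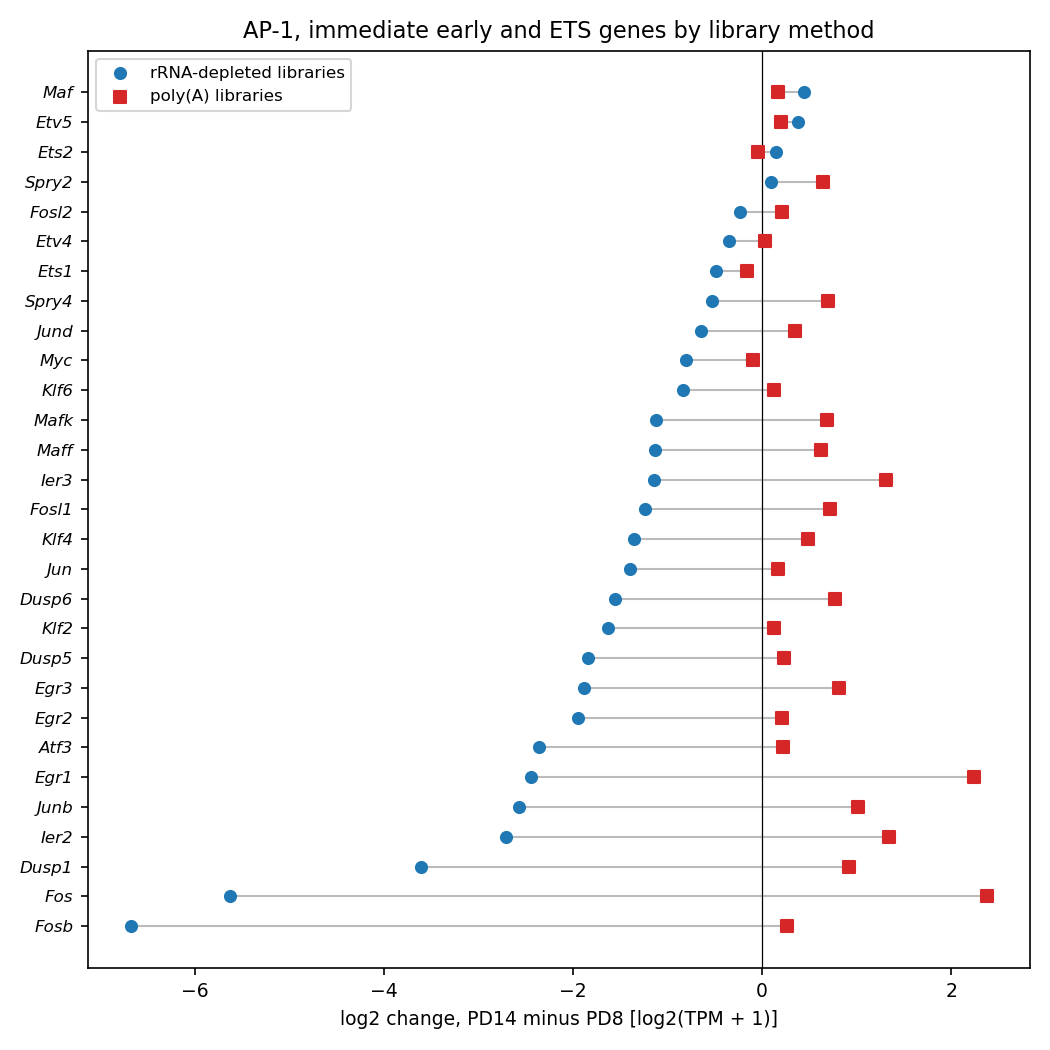
Change from PD8 to PD14 on the log2(TPM + 1) scale for 29 AP-1, immediate early and ETS genes, with 1 point per library method. Rows run from the most negative rRNA-depleted change, Fosb at -6.68, and the poly(A) points of the same genes lie near or above 0.

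Histones and mitochondrial transcripts also differed by method. Replication-dependent histone mRNAs lack a poly(A) tail, and 23 of 33 were split between methods, against 47.2% of all members, with medians of -0.67 (rRNA-depleted) and 0.18 (poly(A)). Hist1h1a had 99.1 and 51.8 TPM (rRNA-depleted) and 2.18 and 1.46 TPM (poly(A)), so its poly(A) levels were a small part of the others. The whole list differed less, with sums of 4216 and 2745 TPM (rRNA-depleted) and 1115 and 1640 TPM (poly(A)). The fitted histone median of -0.17 was 0.66 without the PD14 rRNA-depleted and -1.19 without the PD14 poly(A) library, and -0.44 without the PD8 rRNA-depleted and 0.036 without the PD8 poly(A) one. Of the 13 genes of mitochondrial DNA, 12 were split, with medians of 0.19 and -0.41. mt-Cytb had 5594 and 6510.0 TPM (rRNA-depleted) and 5373 and 2501 TPM (poly(A)). Their fitted median of -0.15 was 0.22 without the PD14 poly(A), -0.50 without the PD14 rRNA-depleted and -0.017 without the PD8 poly(A) library. Igf2, a fetal growth factor, had 179 and 432 TPM (rRNA-depleted) and 228 and 33.6 TPM (poly(A)), and Igfbp5 had 237 and 601 TPM (rRNA-depleted) and 98 and 47.6 TPM (poly(A)): both were 2-fold higher in the rRNA-depleted pair and 2-fold lower in the poly(A) pair.

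The inhibitors of cyclin-dependent kinases that hold senescent arrest, and p53, had fitted changes near their SE. Cdkn2a, which encodes p16 and p19ARF, had 185 TPM at PD8 and 190.2 TPM at PD14 after rRNA depletion, and 376 and 519 TPM after poly(A) selection, after 40.2 and 62.1 TPM at PD2. Cdkn1a, which encodes p21, had 544 and 355 TPM (rRNA-depleted) and 1199.8 and 1385 TPM (poly(A)). Cdkn2b, p15, had 128 and 106 TPM (rRNA-depleted) and 243 and 266 TPM (poly(A)), and Trp53 had 86 and 64.4 TPM (rRNA-depleted) and 142 and 135 TPM (poly(A)). Fitted changes were 0.25 ± 0.21, -0.20 ± 0.26, -0.07 ± 0.20 and -0.24 ± 0.19, each within 1.5 times its SE. Without the PD14 poly(A) library the Cdkn2a change was -0.060, and without the PD14 rRNA-depleted library those of Cdkn1a, Cdkn2b and Trp53 were 0.24, 0.22 and 0.027. Of all members 27.5% were higher and 25.3% lower in both methods. In the list of 24 arrest regulators 3 were higher (12.5%) and 10 lower (41.7%) in both, with a median of -0.15. The largest changes of that list were those of Btg2, an antiproliferative p53 target, at -0.92 ± 0.68, and of Ccne2, cyclin E2, at -0.64 ± 0.25 (unadjusted p = 0.0492 in limma, adjusted p = 0.879). Btg2 differed by -2.32 after rRNA depletion and by 0.49 after poly(A) selection. Ccne2 overlaps Ints8 by 609 exonic bases on the other strand. Of 31 p53 targets, 6 were higher in both (19.4%) and 8 lower in both (25.8%), beside 27.5% and 25.3% of all members. Their median was -0.12. Without the PD14 rRNA-depleted library these 2 medians were 0.063 and 0.027, and without the PD8 rRNA-depleted one that of the p53 targets was -0.058 and without the PD8 poly(A) one that of the arrest regulators was -0.089.

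A panel of 18 genes commonly measured in senescence shares its genes with other lists. Il6 had 7.43 and 2.01 TPM (rRNA-depleted) and 6.41 and 12 TPM (poly(A)), Gdf15, a stress cytokine, had 12.7 and 6.17 TPM (rRNA-depleted) and 12.4 and 18 TPM (poly(A)), and Mmp13, a collagenase, had 15.6 and 11.4 TPM (rRNA-depleted) and 89.9 and 173 TPM (poly(A)). All 3 were lower at PD14 in the rRNA-depleted pair and higher in the poly(A) pair. Over the 17 genes of the panel that were members, 4 were higher in both methods, 5 lower in both and 8 split, a share near the 47.2% of all members.

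WNT ligands, R-spondins and antagonists were higher in both methods in 13 of 22 cases and lower in both in 1. Of all members 27.5% were higher and 25.3% lower in both. The list's median was 0.44. At an unadjusted p under 0.05 in limma 5 were higher, beside 384 of all 13120 members. Of the ligands, Wnt11 had 6.25 and 21.3 TPM (rRNA-depleted) and 4.86 and 9.53 TPM (poly(A)), and Wnt5a had 91 and 122 TPM (rRNA-depleted) and 85.4 and 110.1 TPM (poly(A)). Rspo2, which amplifies WNT signals, had 252 and 353 TPM (rRNA-depleted) and 28.7 and 39.7 TPM (poly(A)). The secreted antagonists Sfrp2 and Notum had 717 and 1397 TPM (rRNA-depleted) and 32.9 and 186 TPM (poly(A)) and 2.03 and 4.63 TPM (rRNA-depleted) and 1.97 and 5.72 TPM (poly(A)). All 5 were higher at PD14 in both methods, and Sfrp2 had the largest change of the list, 1.71 ± 0.77.

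Fibroblast identity was checked by its markers. Col1a1 stood at 7305 and 7460 TPM in the rRNA-depleted and 4338 and 3582 TPM in the poly(A) libraries. Of the 16 fibroblast markers, all members, 6 were higher and 4 lower in both methods, where 27.5% and 25.3% of all members were. The median of the markers was 0.04, and without the PD8 rRNA-depleted library it was -0.014. Pdgfra, a receptor of mesenchymal cells, had 110.3 and 246 TPM (rRNA-depleted) and 64.3 and 88.5 TPM (poly(A)). Dcn, the proteoglycan decorin, had 309.8 and 604 TPM (rRNA-depleted) and 173 and 431 TPM (poly(A)), a change of 1.14 ± 0.18. Fn1, fibronectin, and Vim, vimentin, were lower at PD14 in both methods. Fn1 had 8846 and 6686 TPM (rRNA-depleted) and 9345 and 7171 TPM (poly(A)). Vim had 3009 and 2402 TPM (rRNA-depleted) and 1741 and 1591 TPM (poly(A)). Among markers of other lineages Myod1 was at 0 in all 4 libraries, Pecam1 at 0 in the rRNA-depleted ones and 0.216 and 0.386 TPM in the poly(A) ones, and Epcam under 0.1 TPM throughout. Other markers of non-fibroblast lineages were above the limit, in 8 of 15 endothelial, 13 of 18 neural and glial, 7 of 19 skeletal and cardiac muscle and 3 of 15 epithelial genes. The summed TPM of each list over the 4 libraries ran from 60.8 to 94.1, 208 to 294, 19.2 to 46.4 and 4.89 to 15.2 in that order. None of the 12 erythroid genes was a member. Col2a1, of cartilage, had 224 and 333 TPM in the rRNA-depleted but 10.4 and 4.16 TPM in the poly(A) libraries. The 22 chondrocyte and osteoblast markers, 16 of them members, had the opposite order as a sum. They summed to 1804 and 1798 TPM (rRNA-depleted) and 7223 and 3508 TPM (poly(A)). Of the 14 adipocyte markers 8 were members, and the 14 summed to 146 and 144 TPM (rRNA-depleted) and 119 and 121 TPM (poly(A)).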

How the data were processed

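Values were the TPM per gene that the authors deposited for 6 libraries. The submitters' processing notes name bcl2fastq, cutadapt 1.14, HISAT2 2.0.5, StringTie 1.3.1c and the mm10 build; the annotation and the counting of strand are not given in the sources used here. Per the labels' protocols, replicate 1 was rRNA-depleted and strand-specific and replicate 2 poly(A)-selected. Depth is unknown, and library size cannot be corrected beyond TPM.

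The deposited TPM were analysed as log2(TPM + 1), which understates changes of low genes, in R 4.3.3 with limma 3.58.1. The 13120 genes with at least 1 TPM in 2 of the 4 libraries were fitted over all 6 libraries with group, replicate as an additive block and a mean-variance trend, two-sided, with Benjamini-Hochberg adjustment over all genes at 0.05. Same-numbered libraries deviated together from their group means (correlations 0.755, 0.666 and 0.858), and the labels tie the number to the library method. The fit was tested on simulated data first.

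Named were, in each direction where fewer than 5 genes passed, the 12 genes with a mean of at least 5 TPM and the largest smaller-of-the-methods change, without predicted, mitochondrial, small RNA and histone genes; a senescence panel; and from every other list its 2 largest changes. Another 42 genes, and split or missing list members, were added as examples after their values were seen. Some genes that these rules pick are not reported here. The members, the 38 lists and the tests were chosen with earlier results of these data known. Positions come from GENCODE M21, where 12838 members matched 1 gene, and promoters from RefSeq. Alternatives changed the pseudocount, the filter, the scaling, the block, the trend, the fold and the libraries used.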

Additional observations from a re-analysis of the deposited data

Results flagged for a closer look

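Some genes differed at least 2-fold in opposite directions in the 2 library methods. The rRNA-depleted change minus the poly(A) change, on the log2(TPM + 1) scale, was -8.00 for Fos, -5.04 for Nr4a1, -4.68 for Egr1 and -3.59 for Junb. It was 3.99 for Igf2 and 2.37 for Igfbp5. For Fos the rRNA-depleted pair stood at -5.62 and the poly(A) pair at 2.38; for Igf2 they stood at 1.27 and -2.73, and for Igfbp5 at 1.34 and -1.03. Igf2 shares 3596 exonic bases with Gm49394 on the same strand. The difference between methods was not tested, since each rests on 1 library per group.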

How the results depend on the processing

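No gene passed limma's test under any change of pseudocount, filter, scaling, block, trend or sample set except when a library was left out. The counts without a library were 0 to 0 higher and 0 to 1 lower, the 1 being RP24-243J4.5 (-6.82, adjusted p 0.00799) without the PD14 poly(A) library, and 0 to 1 for the late minus the early step, the 1 without the PD2 rRNA-depleted or the PD14 poly(A) library. Leaving out a library leaves its group with 1, which is assumed to vary like the others. With no replicate block, 0 genes passed, 111 were at an unadjusted p under 0.05 and the smallest adjusted p was 0.99998; the block changed no call. With the 4 libraries alone 1163 were at an unadjusted p under 0.05 and the smallest adjusted p in limma was 0.122.

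The 2-fold counts moved with their settings. Genes 2-fold higher in both methods numbered 105 with a pseudocount of 0.1 and 69 with 0.5, 243 at 1.5-fold and 4 at 3-fold, and 249 to 269 with 1 method alone. Those lower numbered 24 with a pseudocount of 0.1, 5 with a minimum of 5 TPM, 105 at 1.5-fold, 0 at 3-fold and 128 to 151 with 1 method alone. Interferon-stimulated genes 2-fold higher in both numbered 13 with a pseudocount of 0.1, 11 with 0.5, 26 at 1.5-fold and 1 at 3-fold. Acute-phase genes so counted were 16 at 1.5-fold and 0 at 3-fold.

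No named gene reached an adjusted p under 0.05 in limma (smallest 0.122), and 109 of 138 kept their sign. For the others the sign turned when 1 library was left out, and their log2 changes over those fits ran as follows: Adgre1 -0.28 to 1.57, Btg2 -2.25 to 0.41, Ccl2 -0.73 to 1.70, Cd36 -0.24 to 1.08, Cdkn1a -0.65 to 0.24, Cdkn2a -0.060 to 0.57, Cdkn2b -0.37 to 0.22, Cebpb -0.50 to 1.91, Cxcl1 -0.84 to 2.24, Cxcl10 -0.27 to 3.46, Egr1 -2.07 to 1.87, Fos -5.24 to 2.00, Fosl1 -1.12 to 0.60, Gdf15 -0.78 to 0.35, Higd1a -1.14 to 0.027, Hist1h1a -1.72 to 0.42, Igf2 -2.44 to 0.98, Igfbp2 -0.41 to 2.00, Igfbp5 -1.08 to 1.40, Il6 -1.87 to 1.20, Junb -2.41 to 0.86, Lect1 -0.52 to 2.98, Mmp13 -1.62 to 2.13, Nr4a1 -3.69 to 0.93, Pds5a -0.038 to 0.77, S100b -0.0078 to 0.75, Trp53 -0.50 to 0.027, mt-Atp6 -2.29 to 0.078 and mt-Cytb -1.15 to 0.27. The cause was not tested. Of 37 list medians 20 changed sign under some setting, but not those of the interferon, acute-phase, MHC class I, WNT, mitosis, S phase, sterol, contractile, lamina, heat shock or ribosomal protein lists.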

Other observations

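Among the 44 genes 2-fold higher in both library methods, 29 were on none of the lists. Mme, the membrane peptidase neprilysin, had 202 and 589 TPM (rRNA-depleted) and 10.1 and 23.9 TPM (poly(A)) at PD8 and PD14. Agtr2, the type 2 angiotensin receptor, had 53.1 and 137 TPM (rRNA-depleted) and 30.6 and 73.2 TPM (poly(A)), a change of 1.29 ± 0.16 (unadjusted p = 0.00035). Of the 44, 5 were guanylate-binding protein genes. Ifi47, an interferon-inducible GTPase, was near 0 in 1 library, with 0.142 and 7.21 TPM (rRNA-depleted) and 9.56 and 20.7 TPM (poly(A)). Of the 9 genes 2-fold lower in both, 8 were on none of the lists and 4 had a mean under 5 TPM; Gjb2, a gap junction protein, had 3.15 and 0.588 TPM (rRNA-depleted) and 4.48 and 0.576 TPM (poly(A)).

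Matrix genes did not share a direction: of 36 fibrillar matrix and proteoglycan genes, 14 were higher (38.9%) and 8 lower (22.2%) in both methods. Over all members these shares were 27.5% and 25.3%. Fbln1, fibulin 1, had 49.7 and 77.7 TPM (rRNA-depleted) and 74.8 and 118 TPM (poly(A)), and Lum, lumican, had 428 and 835 TPM (rRNA-depleted) and 154 and 219 TPM (poly(A)). Antioxidant genes had 13 of 34 members higher (38.2%) and 6 lower (17.6%) in both methods. Gsta4 and Gstm1, which conjugate glutathione, had changes of 0.87 ± 0.18 and 0.61 ± 0.15. Smarca2, a remodelling ATPase, had 98.6 and 155 TPM (rRNA-depleted) and 51.7 and 72.8 TPM (poly(A)). Its list of 33 enhancer cofactors had 7 higher (21.2%) and 8 lower (24.2%) in both, beside the 27.5% and 25.3% of all members.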
